A study of Mus musculus with 14 samples.

Results

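The 35 genes described here are markers and regulators of the endothelium and of blood vessels, chosen by name from the 23284 genes counted in mouse forelimb buds, and all 35 were found in the data. They were named as a list and not picked for a threshold in these counts. They comprise 3 receptors for VEGF (*Kdr*, *Flt1*, *Flt4*), the angiopoietin receptor *Tek* and its partner *Tie1*, the BMP and TGFβ receptors *Acvrl1* and *Eng*, and 6 other receptors and signaling proteins (*Aplnr*, *Robo4*, *Ramp2*, *Clec14a*, *Rasip1*, *Nos3*). The remainder are 11 junction and surface proteins (*Pecam1*, *Cdh5*, *Esam*, *Cldn5*, *Icam2*, *Emcn*, *Cd34*, *Plvap*, *Lyve1*, *Gja4*, *Gja5*), 4 secreted proteins (*Egfl7*, *Mmrn2*, *Vwf*, *Esm1*) and 7 transcription factors (*Sox7*, *Sox17*, *Sox18*, *Erg*, *Fli1*, *Ets1*, *Tal1*).

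RNA-seq counts were compared in 4 groups of NMRI embryos: the forelimb buds of wild types and of *Smad4*Δ/Δc mutants, each at E10.0 (embryos of 30 somites) and at E10.5 (embryos of 35 somites), with n=3 wild types and n=4 mutants per stage. *Smad4* encodes the SMAD shared by the BMP and TGFβ pathways. Wild-type embryos were *Smad4*+/+ PrxCreT/+ and mutants *Smad4*Δ/Δc PrxCreT/+, so that both genotypes carried the *Prrx1*-CRE transgene, which the study used to inactivate the floxed allele in limb bud mesenchyme on top of a null allele present in all cells of the mutants. Each replicate was the pair of forelimb buds of 1 embryo, a tissue made mainly of mesenchyme in which endothelial cells are a minority.

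The first vessels of the limb bud form a capillary plexus that spreads with the growing mesenchyme. VEGF binds KDR to drive the sprouting and survival of endothelial cells, angiopoietins act through TEK, and BMP9 and BMP10 in the blood signal through ALK1 (encoded by *Acvrl1*) and endoglin to SMAD1/5 and SMAD4. ETS and SOXF transcription factors (ERG, FLI1, ETS1; SOX7, SOX17, SOX18) maintain the expression of junction and receptor genes such as *Cdh5* and *Tek*. Several members are also expressed outside the endothelium: *Tal1* in blood cells, *Fli1* and *Ets1* in blood cells and mesenchyme, and *Pecam1* and *Vwf* in platelets.

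The reads on genes numbered 34066930 to 61691258 per embryo. *Smad4*, the targeted gene, had a mean of 161 CPM (read counts scaled by library size after TMM normalization) in wild type and 39.8 CPM in mutants at E10.0, and 166 CPM and 36.99 CPM at E10.5. Its log2 fold change was -2.01 ± 0.08 (SE) and -2.16 ± 0.07, with all mutants below all wild types at both stages. Mutant replicates 4 and 5 of both stages stood apart by 1.72% to 8.05% of reads from *Rn45s*, the ribosomal RNA precursor, against 0.151% to 0.478% in the 10 other embryos. No wild-type embryo was of this kind, so that in these 4 libraries the source of the reads and the genotype cannot be told apart, and the calls between groups are also given from the replicates numbered 1 to 3 alone (3 wild types against 2 mutants at each stage). Counts at an unadjusted *P*, within a fold, without overlap or by interval rest on all embryos. Because these are bulk samples, fewer endothelial cells and less RNA per endothelial cell cannot be told apart in any value.

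Endothelial transcripts were present in every embryo. Of the 35 members, 34 reached at least 1 CPM in all 14 embryos, and these 34 were tested. The exception was *Lyve1*, a hyaluronan receptor of lymphatic endothelium and of some macrophages, which had 6 to 51 reads per embryo (0.10 to 0.98 CPM) and was not tested. *Sox17*, the next lowest in CPM, had 76 to 180 reads per embryo. Scaled per kb of exons, which allows different genes to be compared, the mean over all embryos ran from 27.6 CPM per kb for *Cd34*, through 10.5 for *Kdr* and 4.34 for *Tek*, to 0.17 for *Lyve1*.

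**Figure D1:**
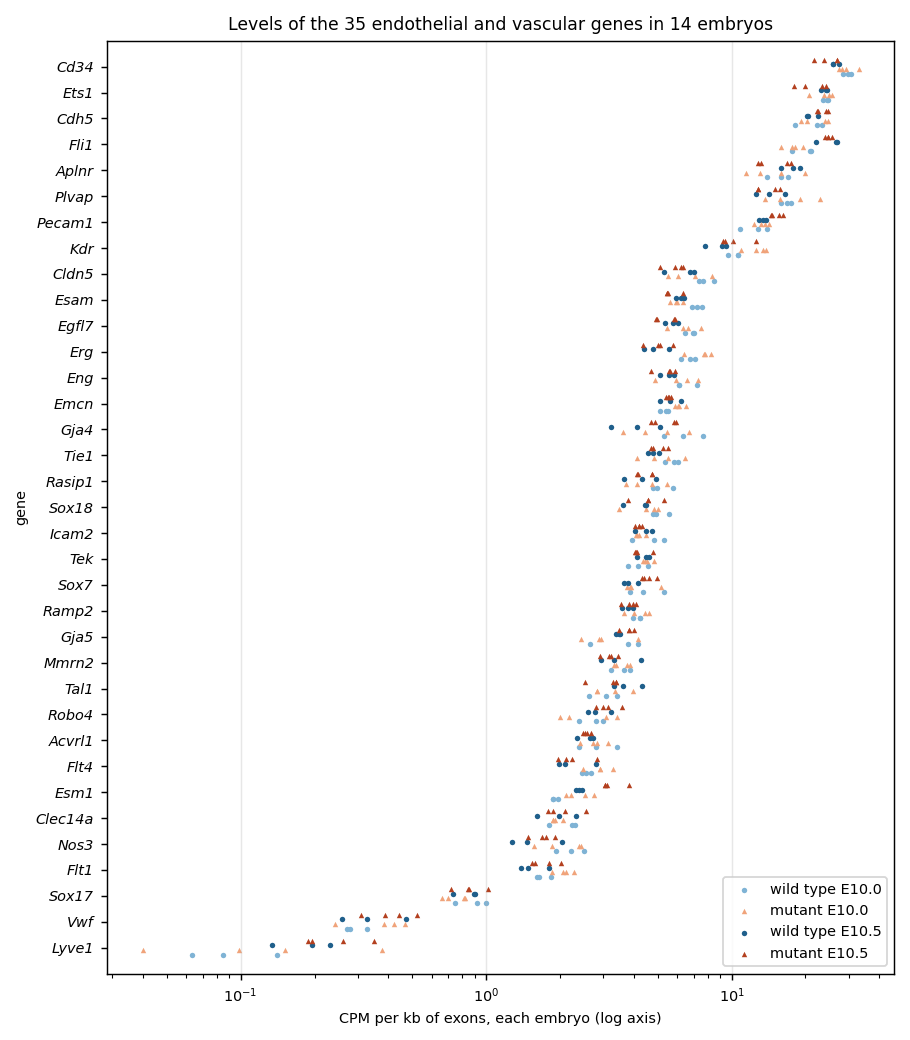
Level of each of the 35 genes in each of the 14 embryos, in CPM per kb of exons on a log axis (circles, wild type; triangles, mutant; light, E10.0; dark, E10.5). Genes are ordered by their mean, from *Cd34* at the top (27.6 CPM per kb) to *Lyve1* at the bottom (0.17 CPM per kb), and for most genes the 4 groups lie on top of each other.

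Among the members with the highest level per kb, *Cd34*, *Ets1* and *Cdh5* were not called in any comparison, whereas *Fli1*, the fourth, is described with the stages. *Cd34*, a surface sialomucin of endothelial and blood progenitor cells, had 80.1, 74.8 and 78.2 CPM in wild type and 76.9, 86.3, 73.9 and 71.9 CPM in mutants at E10.0, and 67.8, 71.8 and 67.8 CPM and 70.6, 70.7, 62.2 and 56.7 CPM at E10.5. *Ets1*, an ETS factor of endothelial and mesenchymal cells, had 159, 152 and 158 CPM in wild type and 160, 165, 133 and 152 CPM in mutants at E10.0, and 149, 156 and 158 CPM and 156, 149, 115 and 128 CPM at E10.5. Its lowest values were those of mutant replicates 4 and 5 at E10.5 and of mutant replicate 4 at E10.0, and the genotypes overlapped at both stages. *Cdh5*, which encodes VE-cadherin, the adhesion molecule of endothelial junctions, had 93.1, 72.1 and 88.6 CPM against 80.5, 76.4, 98.7 and 96.2 CPM at E10.0, and 89.2, 81.2 and 81.9 CPM against 98.0, 88.8, 96.6 and 89.3 CPM at E10.5. *Pecam1*, the platelet and endothelial adhesion molecule CD31, had 59.9, 46.5 and 55.2 CPM against 56.8, 53.1, 59.0 and 61.2 CPM at E10.0, and 59.7, 57.8 and 55.7 CPM against 69.6, 62.5, 67.4 and 63.0 CPM at E10.5. For *Cdh5* the genotypes overlapped at both stages, whereas for *Pecam1* all mutants lay above all wild types at E10.5.

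At the other end, *Sox17*, a SOXF factor of arterial endothelium, had 2.36, 2.88 and 3.15 CPM in wild type and 2.21, 2.56, 2.08 and 2.58 CPM in mutants at E10.0, and 2.31, 2.85 and 2.80 CPM and 3.20, 2.69, 2.26 and 2.67 CPM at E10.5. *Vwf*, the clotting factor stored in endothelial granules, had 4.50, 5.23 and 4.36 CPM against 3.90, 6.16, 7.48 and 6.79 CPM at E10.0, and 7.57, 4.16 and 5.23 CPM against 7.06, 4.96, 8.41 and 6.22 CPM at E10.5. *Lyve1* had 0.16, 0.37 and 0.22 CPM against 0.26, 0.10, 0.98 and 0.39 CPM at E10.0, and 0.60, 0.51 and 0.35 CPM against 0.91, 0.51, 0.68 and 0.49 CPM at E10.5. In these 3 genes the genotypes overlapped at both stages.

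The mean level of the members was close to equal in the 4 groups when all embryos were used. Averaged over the 35 genes, log2(CPM + 1) was 4.26 ± 0.09 in wild types at E10.0 (SD, n=3), 4.25 ± 0.10 in mutants of that stage (SD, n=4), 4.18 ± 0.07 in wild types at E10.5 and 4.22 ± 0.05 in mutants. Single embryos lay between 4.11 and 4.35, and each genotype held values near both ends of that range. At E10.0, mutant replicates 1 and 3 had 4.11 and 4.24, and mutant replicates 4 and 5 had 4.35 and 4.29. The wild types of that stage had 4.28, 4.17 and 4.34. At E10.5, mutant replicates 1 and 2 had 4.26 and 4.16, and mutant replicates 4 and 5 had 4.25 and 4.19. Each difference between groups was smaller than the larger of their SDs, that of the stages in wild types being the largest (0.08 lower at E10.5). No test was made of this mean.

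The first question was whether the loss of mesenchymal *Smad4* altered the endothelial and vascular transcripts. At E10.0, 0 of the 34 members tested were called higher in mutants (background: 3.33% of the 12393 genes tested) and 1 was called lower (background: 3.28%), by edgeR's exact test with an FDR limit of 0.1 and a fold change limit of 1.2. The member called lower was *Esam*. At E10.5, 1 member, *Esm1*, was called higher (background: 2.19%) and 0 were called lower (background: 1.54%). At an unadjusted *P* under 0.05 there were 5 members at E10.0 (17.7% of all genes) and 2 at E10.5 (10.2% of all genes). Counts for the smaller groups of members below are to be read beside these same shares. In groups of so few genes, 0 calls or 1 call does not set a group apart from all genes.

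The differences between genotypes were small, at E10.0 about as small as over all genes. Log2 fold changes of the members ranged from -0.35 to 0.37 at E10.0 (median -0.04, against -0.02 over all genes) and from -0.26 to 0.44 at E10.5 (median 0.03, against -0.01). Within 1.2-fold of no change lay 28 of the 34 members at E10.0 (82.4%, against 81.5% of all genes) and 32 at E10.5 (94.1%, against 86.5%). By the 95% intervals of DESeq2, added after the data were seen, 31 of 34 members were bounded within 1.5-fold in either direction at each stage. The exceptions at both stages were *Esm1*, *Gja4* and *Vwf*. The same share was not computed over all genes. At E10.0, all mutants lay above all wild types in 4 members (background: 8.07%) and below in 1 (background: 9.78%). At E10.5, these numbers were 3 (background: 6.59%) and 0 (background: 6.4%).

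**Figure D2:**
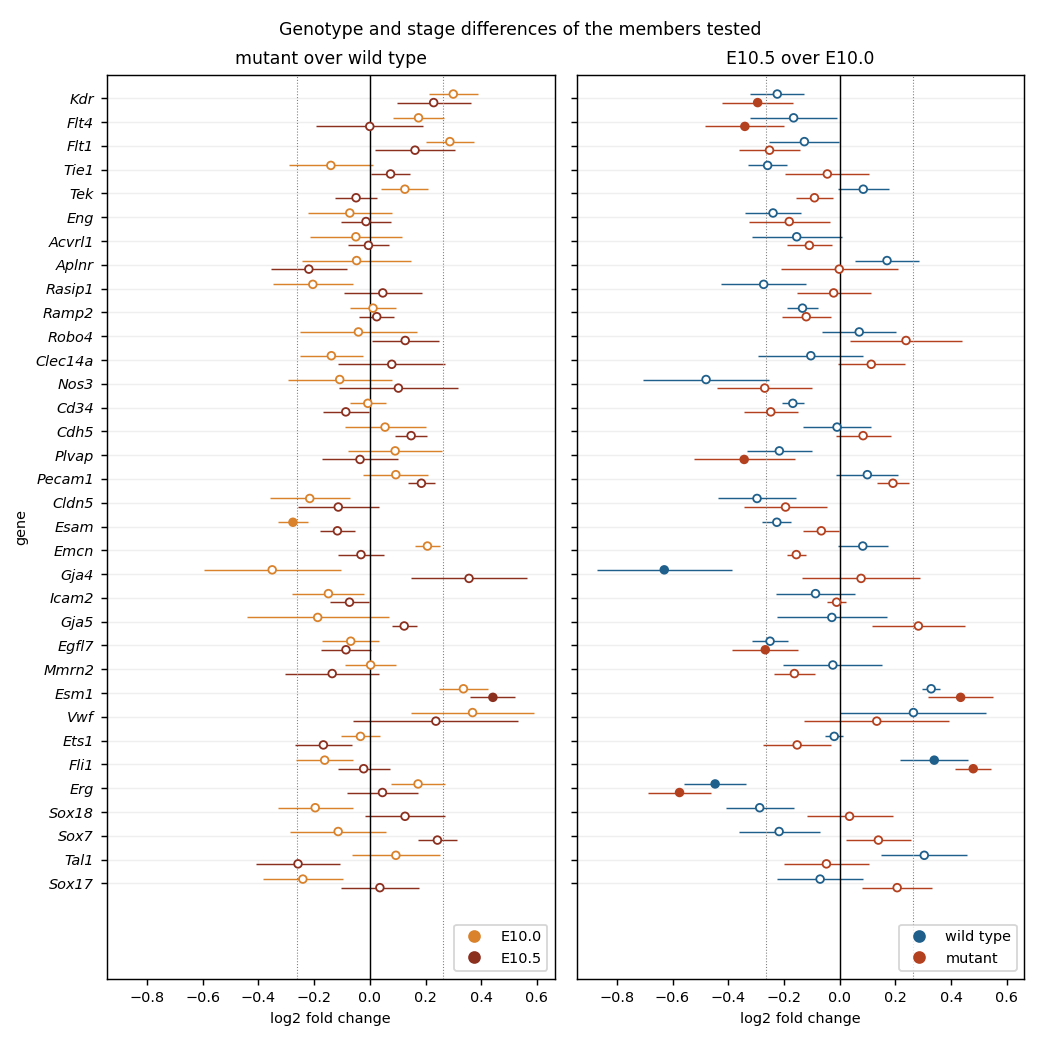
Log2 fold changes of the 34 members tested with their standard errors, of mutant over wild type (left, at E10.0 and E10.5) and of E10.5 over E10.0 (right, in wild type and in mutants), with filled points for called genes and dotted lines at 1.2-fold. Genotype differences lie between -0.35 and 0.44 with *Esam* and *Esm1* called, and on the right *Erg* and *Fli1* are called in both genotypes, in opposite directions.

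The genotype calls depended on single libraries and settings. With the replicates numbered 1 to 3 alone, 4 members were called lower in mutants at E10.0 (*Gja4*, *Rasip1*, *Robo4*, *Tie1*) and 0 higher, where 10.2% of all genes were called lower and 6.23% higher, and no member was called at E10.5. DESeq2 called 3 members higher at E10.0 (*Esm1*, *Flt1*, *Kdr*) and 0 lower, where it called 4.61% of all genes higher and 3.42% lower. With the replicate block, 6 members were called lower at E10.0 and 0 higher, against 9.76% and 6.29% of all genes. The genotype difference in that fit rests on the 2 same-numbered pairs of embryos (numbers 1 and 3). Mutant replicates 4 and 5 thus do not inform it either, and it is no separate check on all embryos. No member was called in every setting at either stage.

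The VEGF receptors had the highest median genotype difference of the receptor groups at both stages (log2 0.29 at E10.0 and 0.16 at E10.5), with 0 of 3 called. *Kdr* (VEGFR2, chr5:76328852-76374483 of mm9, minus strand), the main signaling receptor for VEGF, had 77.1, 77.2 and 70.4 CPM in wild type and 79.2, 97.6, 101 and 91.4 CPM in mutants at E10.0. All mutants lay above all wild types, by a log2 difference of 0.30 ± 0.09 (SE, edgeR's exact test, adjusted *P*=0.105). This difference was called with DESeq2 (adjusted *P*=0.0675), with RLE size factors in edgeR (adjusted *P*=0.0763), with no CPM filter, with only the groups compared and without mutant replicate 1, and not with replicates 1 to 3 alone (edgeR, log2 0.26, adjusted *P*=0.148). At E10.5, *Kdr* had 69.0, 56.9 and 66.6 CPM in wild type and 91.3, 68.7, 73.6 and 67.0 CPM in mutants, where mutant replicates 1 and 4 lay above the wild types and replicates 2 and 5 among them (log2 0.23 ± 0.13, edgeR's exact test, adjusted *P*=0.460).

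*Flt1*, a VEGF receptor that also acts as a decoy, had 21.3, 19.0 and 18.7 CPM in wild type and 21.4, 23.8, 24.5 and 26.3 CPM in mutants at E10.0 (log2 0.29 ± 0.08, edgeR's exact test, adjusted *P*=0.174). The groups did not overlap, although the lowest mutant exceeded the highest wild type by little. *Flt4*, the receptor for VEGF-C and VEGF-D, had 21.99, 21.1 and 20.3 CPM against 20.4, 24.0, 27.2 and 23.9 CPM at E10.0, and 23.0, 16.3 and 17.3 CPM against 23.3, 16.1, 18.4 and 17.5 CPM at E10.5. Its groups overlapped at both stages, with a log2 difference between genotypes of 0.17 ± 0.09 at the first and 0.00 ± 0.19 at the second.

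Of the angiopoietin, BMP and TGFβ receptors, 0 of 4 were called by genotype at either stage, nor was any at an unadjusted *P* under 0.05. *Tek*, the receptor of the angiopoietins, had 21.4, 17.7 and 19.5 CPM in wild type and 21.3, 22.7, 20.9 and 20.5 CPM in mutants at E10.0, and 19.4, 21.1 and 21.7 CPM and 22.5, 19.0, 19.2 and 19.4 CPM at E10.5. *Tie1* had means of 28.3 ± 1.84 and 25.7 ± 5.01 CPM at E10.0 and 23.6 ± 1.2 and 24.9 ± 1.91 CPM at E10.5. *Tie1* was called lower in mutants at E10.0 with replicates 1 to 3 alone (edgeR, log2 -0.35, adjusted *P*=0.0250), since mutant replicates 1 and 3 had 20.2 and 23.7 CPM and replicates 4 and 5 had 31.9 and 27.2 CPM.

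*Acvrl1*, the receptor that feeds BMP9 and BMP10 into SMAD signaling, had means of 12.2 ± 2.17 and 11.8 ± 1.27 CPM at E10.0 and 11.0 ± 0.89 and 11.0 ± 0.37 CPM at E10.5. By DESeq2, its log2 difference between genotypes had a 95% interval of -0.28 to 0.21 at E10.0 and of -0.24 to 0.25 at E10.5. *Eng*, its co-receptor, had intervals of -0.31 to 0.20 and of -0.26 to 0.25. For both genes the intervals lay within 1.5-fold and included 0.

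Among the 6 other receptors and signaling proteins, 0 were called by genotype and 0 had an unadjusted *P* under 0.05 at either stage. They were *Aplnr* (the apelin receptor), *Ramp2* (a partner of the adrenomedullin receptor), *Robo4* and *Clec14a* (surface receptors of endothelial cells), *Rasip1* (a regulator of small GTPases in lumen formation) and *Nos3* (endothelial nitric oxide synthase). Their log2 differences ran from -0.20 (*Rasip1*) to 0.01 (*Ramp2*) at E10.0 and from -0.22 (*Aplnr*) to 0.13 (*Robo4*) at E10.5. As for *Tie1*, *Rasip1* and *Robo4* were lower in mutant replicates 1 and 3 at E10.0 (11.9 and 13.2 CPM, and 8.21 and 8.90 CPM) than in mutant replicates 4 and 5 (17.4 and 15.1 CPM, and 13.96 and 12.7 CPM). Without replicates 4 and 5, both were called lower by edgeR, with adjusted *P*=0.0598 for *Rasip1* and adjusted *P*=0.0811 for *Robo4*.

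Of the junction and surface proteins, 1 of 10 tested was called by genotype at E10.0 and 0 at E10.5. *Esam* (chr9:37335663-37345904 of mm9, plus strand), an immunoglobulin family molecule of endothelial tight junctions, had 20.8, 19.8 and 21.7 CPM in wild type and 17.1, 18.2, 17.0 and 16.1 CPM in mutants at E10.0. All mutants lay below all wild types, and the gene fell by 0.28 ± 0.05 on the log2 scale (edgeR's exact test, adjusted *P*=0.0940). At E10.5, the values were 16.9, 18.3 and 17.9 CPM in wild type and 18.2, 15.7, 15.8 and 15.6 CPM in mutants, and the groups overlapped. The E10.0 call was lost without any 1 of 6 of the 7 embryos, the exception being mutant replicate 3, and its adjusted *P* from edgeR or DESeq2 ran from 0.0252 to 0.489 over 14 alternatives, all with the lower level in mutants. DESeq2 gave the lowest of these, with a fold change under 1.2.

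*Emcn*, a sialomucin of venous and capillary endothelium, had means of 28.8 ± 1.11 and 33.2 ± 1.44 CPM at E10.0, without overlap of the groups (log2 0.21 ± 0.04, edgeR's exact test, adjusted *P*=0.211), and of 30.5 ± 3.05 and 29.9 ± 0.60 CPM at E10.5. *Gja4* (chr4:126988665-126991283 of mm9, minus strand), the gap junction protein connexin 37 of arterial endothelium, had 10.7, 8.96 and 12.9 CPM in wild type and 6.05, 7.46, 9.20 and 11.3 CPM in mutants at E10.0. At E10.5, it had 8.60, 6.95 and 5.45 CPM in wild type and 7.93, 8.18, 9.79 and 9.998 CPM in mutants. The mutants were on average lower at E10.0 and higher at E10.5 with overlapping groups, and neither difference was called (edgeR's exact test, adjusted *P*=0.354 and adjusted *P*=0.587). With replicates 1 to 3 alone, *Gja4* was called lower in mutants at E10.0 (edgeR, log2 -0.66, adjusted *P*=0.0204).

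*Esm1* (chr13:113999867-114008306 of mm9, plus strand), which encodes the secreted proteoglycan endocan of sprouting tip cells, was the only one of the 34 members with all mutants above all wild types at both stages. The share of all genes with this pattern at both stages was not computed. It had 3.93, 3.93 and 4.12 CPM in wild type and 5.32, 4.64, 5.76 and 4.45 CPM in mutants at E10.0. At E10.5, it had 5.02, 4.87 and 5.14 CPM in wild type and 6.37, 6.40, 7.98 and 6.55 CPM in mutants. The log2 difference was 0.34 ± 0.09 at E10.0 (edgeR's exact test, adjusted *P*=0.194) and 0.44 ± 0.08 at E10.5 (adjusted *P*=0.0727 by the same edgeR test). The E10.5 call was lost without mutant replicate 4 or 5 or any 1 wild type, and its adjusted *P* from edgeR or DESeq2 ran from 0.0132 to 0.334 over 14 alternatives, all with the higher level in mutants. The other secreted proteins, *Egfl7* (a matrix protein of vessel sprouts), *Mmrn2* (a matrix glycoprotein that binds CLEC14A) and *Vwf*, were not called.

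Of the 7 transcription factors among the members, 0 were called by genotype and 0 had an unadjusted *P* under 0.05 at either stage. Of all genes, 17.7% had such a *P* at E10.0 and 10.2% at E10.5. Their log2 differences between genotypes ran from -0.24 (*Sox17*) to 0.17 (*Erg*) at E10.0 and from -0.26 (*Tal1*, a regulator of blood and endothelial progenitors) to 0.24 (*Sox7*) at E10.5. *Sox7*, a SOXF factor, had 13.7, 12.5 and 12.1 CPM in wild type and 16.3, 15.2, 14.2 and 14.6 CPM in mutants at E10.5, without overlap (edgeR's exact test, adjusted *P*=0.591).

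The second question was which members changed from E10.0 to E10.5. In wild type, 1 member was called higher at E10.5 (*Fli1*, background: 5.39%) and 2 were called lower (*Erg* and *Gja4*, background: 4.74%). In mutants, 2 members were called higher (*Fli1* and *Esm1*, background: 10.8%) and 5 were called lower (*Erg*, *Kdr*, *Flt4*, *Plvap* and *Egfl7*, background: 8.4%). The median log2 fold change of the members was -0.13 in wild type (all genes, -0.01) and -0.06 in mutants (all genes, -0.01), and 25 of 34 estimates were below 0 in wild type and 22 of 34 in mutants. In wild type, all E10.5 embryos lay below all E10.0 embryos for 11 members and above them for 2. In mutants, they lay below for 3 members and above for 3. The share of all genes without overlap between stages was not computed. With the replicate number as a block, the mutant counts were 2 higher and 2 lower, where 9.06% of all genes were called higher and 6.73% lower. The comparisons between stages share their embryos with those between genotypes.

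*Erg* and *Fli1*, which encode related ETS factors of endothelial cells, moved in opposite directions between the stages in both genotypes. *Erg* (chr16:95580776-95808200 of mm9, minus strand) had 23.6, 24.7 and 21.6 CPM in wild type at E10.0 and 19.3, 15.3 and 16.6 CPM at E10.5. In mutants, it had 22.3, 27.0, 27.1 and 28.7 CPM at E10.0 and 17.8, 15.2, 20.04 and 17.5 CPM at E10.5. All E10.5 embryos lay below all E10.0 embryos of the same genotype. *Erg* fell by 0.45 ± 0.11 on the log2 scale in wild type (edgeR's exact test, adjusted *P*=0.0137) and by 0.57 ± 0.11 in mutants (same edgeR test, adjusted *P*=1.03e-05).

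*Fli1* (chr9:32229793-32348974 of mm9, minus strand) had 65.6, 55.0 and 64.8 CPM in wild type at E10.0 and 68.7, 83.3 and 82.7 CPM at E10.5. In mutants, it had 60.7, 49.4, 54.7 and 56.1 CPM at E10.0 and 79.7, 76.7, 74.9 and 76.7 CPM at E10.5. All E10.5 embryos lay above all E10.0 embryos of the same genotype. *Fli1* rose by 0.34 ± 0.12 on the log2 scale in wild type (edgeR's exact test, adjusted *P*=0.0217) and by 0.48 ± 0.06 in mutants (same edgeR test, adjusted *P*=4.01e-06).

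In mutants, both genes were called in all 15 alternative settings, including replicates 1 to 3 alone (edgeR, adjusted *P*=0.00190 for *Erg* and adjusted *P*=0.00124 for *Fli1*) and the replicate block (edgeR, adjusted *P*=0.0154 and adjusted *P*=0.0140). In wild type, both kept their direction but lost the call without the E10.0 embryo of replicate 2 or the E10.5 embryo of replicate 2 or 3 (edgeR, highest adjusted *P*=0.143 for *Erg* and adjusted *P*=0.266 for *Fli1*). In wild types, the ratio of *Fli1* to *Erg* CPM was 2.67 ± 0.40 at E10.0 (SD, n=3) against 4.65 ± 0.98 at E10.5, and in mutants it was 2.13 ± 0.40 (SD, n=4) against 4.41 ± 0.53. The ratio was thus higher at E10.5 in every embryo (3.55 to 5.43) than at E10.0 (1.83 to 3.00). Within a genotype this separation follows from the values of the 2 genes given above, and it is no separate evidence. *Ets1*, the third ETS member, did not pass the test between stages (log2 -0.02 ± 0.03 in wild type and -0.15 ± 0.12 in mutants).

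**Figure D3:**
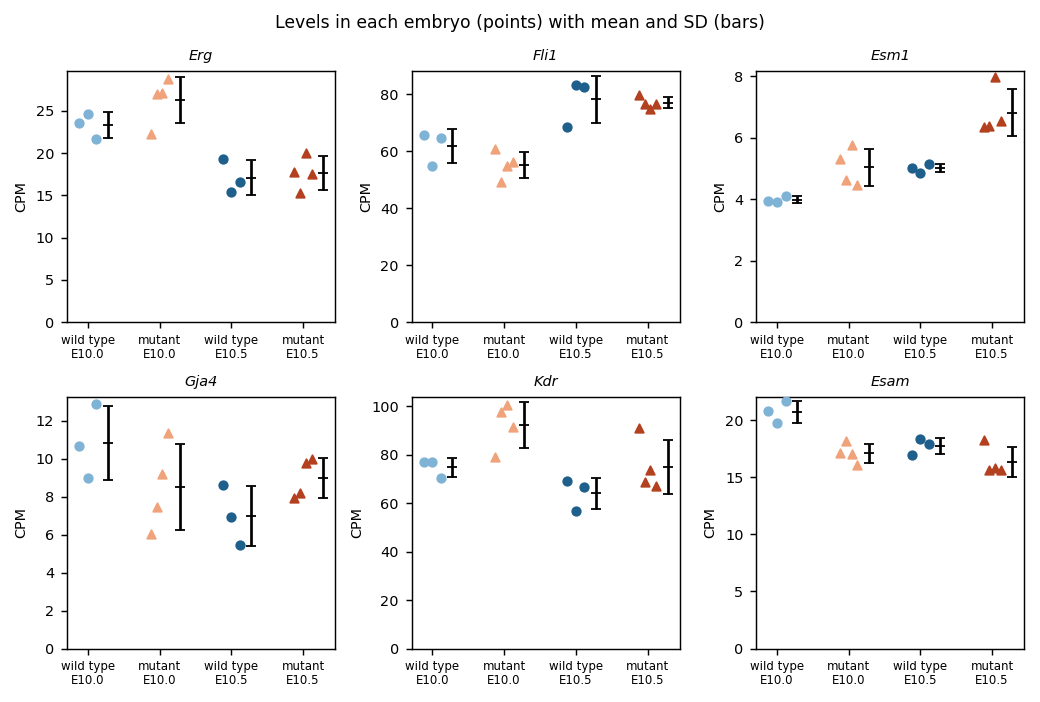
CPM of *Erg*, *Fli1*, *Esm1*, *Gja4*, *Kdr* and *Esam* in each embryo (points) of the 4 groups, with mean and SD as bars (n=3 wild types and n=4 mutants per stage); axes start at 0. *Erg* is lower and *Fli1* higher at E10.5 in both genotypes, and *Esm1* is higher in mutants at both stages without overlap.

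*Esm1* was higher at E10.5 in both genotypes, with no overlap between stages. It was called in mutants (log2 0.43 ± 0.12, edgeR's exact test, adjusted *P*=0.00983) and not in wild type (log2 0.33 ± 0.03, adjusted *P*=0.207). *Gja4* fell by 0.63 ± 0.24 on the log2 scale in wild type (edgeR's exact test, adjusted *P*=0.0479), a call that was lost without the E10.0 embryo of replicate 3 or the E10.5 embryo of replicate 2 or 3 (edgeR, highest adjusted *P*=0.403). In mutants, its log2 difference between stages was 0.08 ± 0.21 (edgeR's exact test, adjusted *P*=0.844).

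The members lower at E10.5 in mutants had overlapping stages, apart from *Erg*. *Kdr* fell by 0.29 ± 0.13 on the log2 scale (edgeR's exact test, adjusted *P*=0.0286) and *Flt4* by 0.34 ± 0.14 (edgeR's exact test, adjusted *P*=0.0488). *Plvap*, the protein of endothelial fenestrae and caveolae, had 27.4, 31.8, 46.4 and 38.3 CPM in mutants at E10.0 and 25.7, 25.8, 31.7 and 30.2 CPM at E10.5, and fell by 0.34 ± 0.18 (edgeR's exact test, adjusted *P*=0.0576). In wild type it had 33.96, 32.1 and 35.2 CPM at E10.0 and 33.2, 28.6 and 25.4 CPM at E10.5. *Egfl7* (19.6, 23.8, 26.9 and 22.6 CPM in mutants at E10.0, and 17.8, 17.5, 20.8 and 21.1 CPM at E10.5) fell by 0.27 ± 0.12 (edgeR's exact test, adjusted *P*=0.0681). In wild type, *Egfl7* had 23.0, 24.9 and 25.1 CPM at E10.0 and 20.7, 21.6 and 19.1 CPM at E10.5, with no overlap.

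Mutant embryos with the same replicate number deviated together at the 2 stages (correlations of 0.21 to 0.56), but so did differently numbered mutants of the same *Rn45s* kind (0.10 to 0.30), while those of different kinds did not (-0.49 to -0.13). With the number as a replicate block, 4 of the 7 calls remained (*Erg*, *Fli1*, *Esm1* and *Plvap*), from the 3 same-numbered pairs of mutants. *Kdr* (edgeR, adjusted *P*=0.247), *Flt4* (edgeR, adjusted *P*=0.241) and *Egfl7* (edgeR, adjusted *P*=0.143) were not called in that fit. With replicates 1 to 3 alone (2 mutants per stage), *Erg* and *Fli1* were called again, *Gja5* (connexin 40 of arteries) and *Robo4* were called higher at E10.5, and the other 5 were not called. In that setting 9.72% of all genes were called higher and 7.79% lower. *Cd34* fell by 0.25 ± 0.10 in mutants without overlap (edgeR's exact test, adjusted *P*=0.0293), which is less than the 1.2-fold required for a call.

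The stage difference was not shown to depend on genotype for any member. The interaction of stage and genotype was called for 0 of 34 members by edgeR's quasi-likelihood test (background: 0.186%), with 2 members, *Gja4* and *Emcn*, at an unadjusted *P* under 0.05 and a lowest adjusted *P* of 0.784. DESeq2 also called 0. For *Gja4*, the genotype difference at E10.5 minus that at E10.0 was 0.71 on the log2 scale (edgeR's quasi-likelihood test, adjusted *P*=0.784).

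Promoter sequence is shown for the 5 members called between stages in mutants that have one in the table, *Erg*, *Egfl7*, *Kdr* and *Flt4* (lower at E10.5) and *Esm1* (higher), because ETS factors bind DNA through the core GGAA. RefSeq promoters (GRCm38.p6) could be matched for 18 of the 35 members, *Fli1* and *Plvap* not being among them. The motifs AGGAAG or CGGAAG (the ETS core with a flanking base on each side, both strands) are printed in capitals. The windows are the 250 bases before the start site, 5′ to 3′ on the strand of the gene. *Erg* has 3 promoters in the table and *Egfl7* has 3, of which the one with the most matches is shown for each. The other *Erg* windows hold no match, and the other *Egfl7* windows hold 1 and 0. They lie at chr16:95459349-95459598 (minus strand, *Erg*), chr2:26580833-26581082 (plus strand, *Egfl7*), chr5:75978456-75978705 (minus strand, *Kdr*), chr11:49609429-49609678 (plus strand, *Flt4*) and chr13:113209409-113209658 (plus strand, *Esm1*).
Erg: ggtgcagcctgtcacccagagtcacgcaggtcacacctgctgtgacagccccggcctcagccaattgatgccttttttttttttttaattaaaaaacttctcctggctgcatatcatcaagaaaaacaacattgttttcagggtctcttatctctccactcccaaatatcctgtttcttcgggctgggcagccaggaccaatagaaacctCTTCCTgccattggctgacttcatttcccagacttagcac
Egfl7: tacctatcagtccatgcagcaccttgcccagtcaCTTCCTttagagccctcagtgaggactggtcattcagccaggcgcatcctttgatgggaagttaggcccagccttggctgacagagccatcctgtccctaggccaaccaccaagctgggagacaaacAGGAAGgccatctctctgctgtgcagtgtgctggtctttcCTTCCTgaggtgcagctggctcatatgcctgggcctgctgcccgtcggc
Kdr: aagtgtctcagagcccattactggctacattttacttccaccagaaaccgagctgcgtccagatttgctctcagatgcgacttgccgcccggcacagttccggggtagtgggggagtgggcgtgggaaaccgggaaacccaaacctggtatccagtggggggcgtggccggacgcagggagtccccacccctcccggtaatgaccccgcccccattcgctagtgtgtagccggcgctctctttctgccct
Flt4: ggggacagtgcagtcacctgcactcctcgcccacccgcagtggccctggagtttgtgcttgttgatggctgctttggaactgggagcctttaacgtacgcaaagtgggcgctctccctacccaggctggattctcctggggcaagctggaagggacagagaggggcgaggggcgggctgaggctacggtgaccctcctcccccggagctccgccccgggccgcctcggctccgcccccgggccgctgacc
Esm1: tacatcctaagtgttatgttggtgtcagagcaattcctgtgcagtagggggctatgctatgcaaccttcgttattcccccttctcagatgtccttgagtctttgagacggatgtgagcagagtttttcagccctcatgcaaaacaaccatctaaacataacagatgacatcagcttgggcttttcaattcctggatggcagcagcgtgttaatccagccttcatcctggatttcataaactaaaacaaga
The *Erg* window holds AGGAAG or CGGAAG 1 time, the *Egfl7* window 3 times and the *Kdr*, *Flt4* and *Esm1* windows not at all. The shorter core GGAA does occur in the *Kdr*, *Flt4* and *Esm1* windows, on one strand or the other, and was not counted. Over all 32851 promoter windows of the same length, 39.2% hold AGGAAG or CGGAAG, against 11 of the 23 windows of members. The SOX motif AACAAT is in 9.42% of all windows and in 3 of 23 of the members' (*Emcn*, *Erg* and *Tek*), and the BMP-SMAD motif GGCGCC is in 9.59% of all windows and in 0 of 23. A match describes letters in this window and does not show binding.

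Ligands and co-receptors of these pathways were examined as a list of 14 genes, of which 10 were tested. At E10.0, 2 were called higher and 0 lower in mutants, and at E10.5, 3 were called higher and 1 lower. *Vegfa*, the main ligand of KDR, was not called, with 46.9 ± 8.23 CPM in wild types and 47.1 ± 4.57 CPM in mutants (SD) at E10.0, then 45.8 ± 4.45 and 44.9 ± 3.54 CPM at E10.5. *Apela*, a peptide ligand of APLNR counted under the symbol *Gm10664*, rose in mutants from 0.75 ± 0.37 to 2.35 ± 0.77 CPM at E10.0 (log2 1.64 ± 0.50, edgeR's exact test, adjusted *P*=1.66e-05). At E10.5, it rose from 1.73 ± 0.10 to 6.25 ± 1.01 CPM (log2 1.85 ± 0.12, edgeR's exact test, adjusted *P*=3.95e-08). *Nrp2*, a VEGF-C and semaphorin co-receptor, rose from 144 to 185 CPM at E10.0 and from 215 to 281 CPM at E10.5 (log2 0.37 and 0.39). Also at E10.5, *Cxcl12*, the chemokine that binds CXCR4, rose from 87.0 to 122 CPM and *Angpt1*, an activating ligand of TEK, fell from 19.1 to 13.99 CPM. With replicates 1 to 3 alone, *Nrp2* was not called at E10.0, *Angpt1* was not called at E10.5, and *Vegfb*, a ligand of FLT1, was called lower at both stages. Between stages, 4 genes of this list were called higher (background: 5.39%) and 0 lower (background: 4.74%) in wild type. In mutants, 5 were called higher (background: 10.8%) and 2 lower (background: 8.4%). By the main edgeR exact test, none of the receptors *Aplnr*, *Tek*, *Flt1* and *Kdr* was called by genotype at either stage. At E10.0, DESeq2 called *Flt1* and *Kdr* higher, and the exact test in several other settings called *Kdr* higher, as given above.

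Of the 8 genes in a list of BMP and ALK1 responses, 5 were called lower in mutants at both stages and 0 higher (median log2 -0.48 at each stage), namely *Id1*, *Id2*, *Id3*, *Smad6* and *Smad7*, inhibitors of differentiation and of SMAD signaling that BMPs induce. *Id1* had 33.0, 49.5 and 37.9 CPM in wild type and 14.4, 22.4, 16.8 and 14.6 CPM in mutants at E10.0 (log2 -1.24 ± 0.23, edgeR's exact test, adjusted *P*=4.63e-14). The same 5 genes were called with replicates 1 to 3 alone. *Tmem100*, a target of ALK1 in endothelial cells, had 4.36 ± 0.30 and 4.72 ± 0.29 CPM at E10.0 and 5.31 ± 0.39 and 5.56 ± 0.22 CPM at E10.5, and was not called. The *Id* and inhibitory *Smad* genes are transcribed in mesenchyme as well as in endothelium, and in these samples the 2 sources cannot be told apart.

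Of 12 Notch and artery-vein genes, 1 was called lower in mutants at E10.0, and 1 higher and 2 lower at E10.5. *Unc5b*, a netrin receptor of endothelial tip cells and of mesenchyme, fell from 122 ± 4.77 to 88.3 ± 6.45 CPM at E10.0 and from 107 ± 4.21 to 86.5 ± 7.92 CPM at E10.5. *Efnb2*, the arterial ephrin, rose from 160 ± 5.81 to 200 ± 4.19 CPM at E10.5, and *Hey1*, a Notch target, fell from 42.4 ± 4.27 to 30.2 ± 3.83 CPM. With replicates 1 to 3 alone, the *Hey1* call was lost, and *Cxcr4*, *Ephb4* and *Notch4* were called lower at E10.0 together with *Unc5b*. *Dll4*, the Notch ligand of arterial endothelium, had means of 7.61 to 8.92 CPM in the 4 groups and was not called.

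A second endothelial list, 14 surface and signaling genes that are not among the 35, had 3 genes called higher in mutants at E10.0 and 0 lower. They were *Gpr116* (22.001 to 29.6 CPM, log2 0.42 ± 0.13), *Stab2* (0.87 to 1.57 CPM, log2 0.85 ± 0.26) and *Ptprb* (8.61 to 11.5 CPM, log2 0.41 ± 0.13), with adjusted *P* by edgeR's exact test of 0.0416, 0.0591 and 0.0727. Of these, *Stab2* was called with replicates 1 to 3 alone, and 0 of the 14 genes were called at E10.5, with 2 at an unadjusted *P* under 0.05. Of 9 further endothelial transcription factors tested, 0 were called at E10.0, with 1 at an unadjusted *P* under 0.05, and *Gata2* was called lower in mutants at E10.5 (3.39 ± 0.54 to 1.72 ± 0.45 CPM, edgeR's exact test, adjusted *P*=0.000575).

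**Figure D4:**
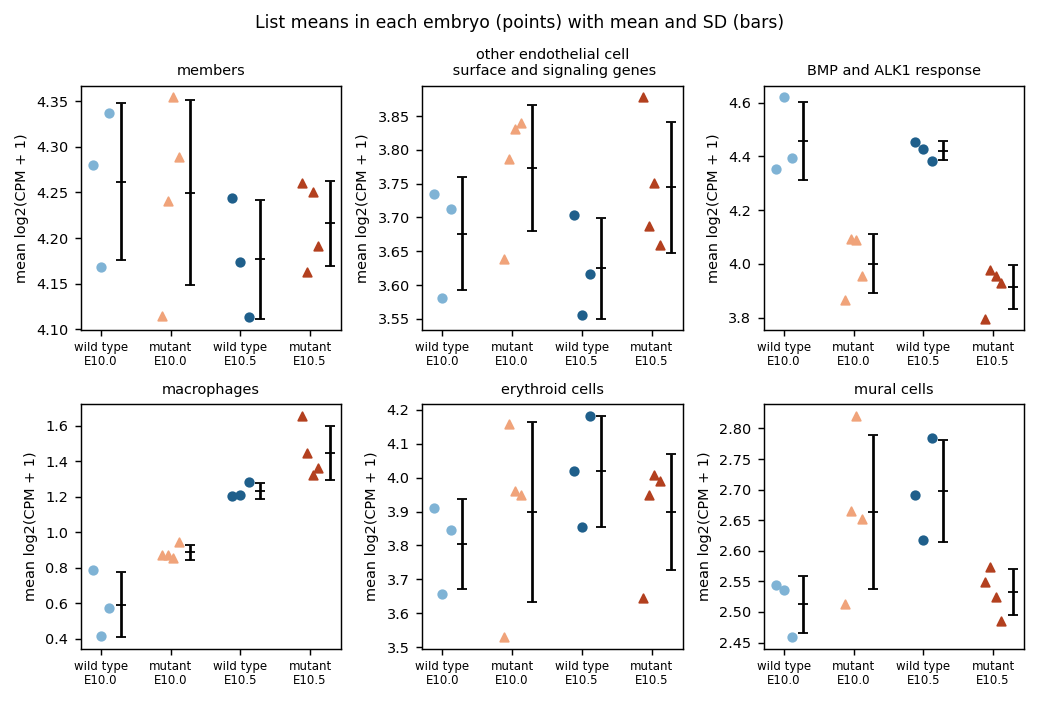
Mean log2(CPM + 1) per embryo over the 35 members and over 5 other lists in the 4 groups (points, embryos; bars, mean and SD), with a separate vertical scale in each panel that does not start at 0. The members overlap in all groups (4.11 to 4.35), the BMP and ALK1 response list is lower in mutants at both stages, and the macrophage list is higher at E10.5 in both genotypes.

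Among markers of other cells in and around the vessels, several macrophage and mural cell genes and 1 erythroid gene were called by genotype. The summed level of 15 macrophage genes was 5.62 to 12.03 CPM in wild type and 13.7 to 16.6 CPM in mutants at E10.0, and 22.9 to 26.3 and 27.3 to 39.8 CPM at E10.5. Of 11 tested, 10 were called higher at E10.5 in each genotype (background: 5.39% in wild type and 10.8% in mutants). At E10.0, 4 were called higher in mutants (*Cx3cr1*, *Mrc1*, *C1qc*, *Ptprc*, background: 3.33%). The replicates 1 to 3 alone gave 5 macrophage genes higher in mutants at E10.0, and 2 at the later stage. Erythroid genes summed to 2683 to 5175 CPM over all embryos, with overlapping groups. Of 10 tested, 1 was called higher in mutants at E10.0, and 4 of the 14 symbols had no read in any embryo. Of 10 mural cell genes tested, 4 were called higher in mutants at E10.0 (*Abcc9*, *Acta2*, *Tagln*, *Anpep*) and 3 lower at E10.5 (*Rgs5*, *Des*, *Acta2*). From replicates 1 to 3 alone, 3 mural cell genes were called higher and 3 lower at E10.0, and 1 higher and 2 lower at E10.5. Whether macrophages, blood or mural cells had a part in the values of the members was not tested.

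The remaining lists were of other tissues and of megakaryocytes. Of 7 limb mesenchyme genes, 5 were called lower in mutants at E10.0, and 4 lower and 1 higher at E10.5, *Prrx2* with the smallest *P* (88.3 to 43.8 CPM at E10.0). Of 8 limb ectoderm genes, 0 were called by genotype and 0 had an unadjusted *P* under 0.05. Of 5 mesothelium genes tested, 3 were called higher in mutants at E10.0 and 2 lower at E10.5, and of 4 muscle precursor genes 2 were called higher at E10.0 and 1 lower at E10.5. The summed mesothelium genes had 8.28 to 11.7 CPM in wild type and 15.8 to 29.6 CPM in mutants at E10.0, and 11.0 to 13.8 and 6.38 to 10.3 CPM at E10.5. The summed muscle genes had 31.5 to 35.8 CPM against 35.8 to 43.0 CPM, and 39.8 to 44.2 CPM against 30.0 to 34.5 CPM. Of 4 megakaryocyte genes tested, 0 were called by genotype, with 2 at an unadjusted *P* under 0.05 at E10.0 and 1 at E10.5. Of 2 neural crest genes tested, *Ngfr* was called higher in mutants at both stages and *Erbb3* lower at E10.5. The mesenchyme counts from replicates 1 to 3 alone were 4 lower at E10.0, and 1 higher and 3 lower at E10.5. In the same setting *Wt1*, *Upk3b* and *Erbb3* were not called at E10.5 and the megakaryocyte gene *Pf4* was called higher at E10.0, while the muscle, ectoderm and erythroid counts were those given above.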

How the data were processed

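RNA-seq of polyA RNA from 14 samples was analysed, each the forelimb buds of 1 embryo. The authors aligned single-end, unstranded reads to mm9 with TopHat2 (2.0.13, per the labels), counted unique alignments by gene symbol using HTSeq, and deposited raw counts, the only unit used here. Without strand, reads from overlapping genes cannot be told apart. Of 23284 symbols, the 1041 placed on X, Y or M were removed, and 12393 genes that reached 1 CPM in 3 or more samples were tested. Following the study's methods, libraries were normalized by TMM (factors 0.934 to 1.035), dispersions were estimated over all 14 samples with a prior of 10 degrees of freedom, and groups were compared with edgeR 4.0.16 by its exact test with Benjamini-Hochberg adjustment over all genes tested. A gene was called where the FDR was 0.1 or less and the change 1.2-fold or more. The interaction was tested by edgeR's quasi-likelihood test. Standard errors of log2 fold changes come from the replicate variance of log2 CPM with a prior count of 2. CPM counts carry a counting error set by 34066930 to 61691258 reads on genes.

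The members and the other lists (142 genes in 14 lists, 139 found) were chosen with earlier results of these data known. Values per embryo are given for members called in any comparison, for *Pecam1*, *Cdh5*, *Kdr* and *Tek*, for the 3 highest and 3 lowest members per kb, and for members whose genotypes did not overlap at both stages. At most 4 called genes are named from each other list. *Flt1*, *Sox7*, *Vegfa*, *Vegfb*, *Dll4* and *Tmem100* were added after their values were seen. Alternatives were the quasi-likelihood test, DESeq2 1.42.0, RLE size factors, no CPM filter, only the groups compared, replicates 1 to 3 alone, a replicate block and leaving out each sample. In the replicate block, an embryo whose number is missing from the other group does not inform the difference between the groups. The tests were tried on simulated counts. Replicate numbers come from the sample labels. Deviations from group means correlated over the 3 same-numbered pairs of mutants across stages (0.21 to 0.56), which met the rule for pairing, that every pair exceeds 0.1. Only the replicate block used this pairing, and the main calls did not. Differently numbered mutants correlated by 0.10 to 0.30 where both or neither were replicates 4 and 5 and by -0.49 to -0.13 otherwise, so that a shared number and the *Rn45s* share cannot be told apart. The counts of no 2 replicates agreed within sampling noise (chi-square divided by its degrees of freedom, 12.9 or more). Exon lengths and positions are from the NCBIM37 (mm9) annotation, and promoters from RefSeq. R 4.3.3, Python 3.11.15 and matplotlib 3.10.9 were used.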

Additional observations from a re-analysis of the deposited data

Results flagged for a closer look

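In groups of 4 mutants, 5 values of members lay farther from the others than Dixon's 95% criterion allows, out of 70 groups examined, of which chance flags about 1 in 20. Mutant replicate 1 at E10.5 accounts for 3 of them: *Tek* had 22.5 CPM against 19.0 to 19.4 CPM in the other mutants, *Esam* 18.2 CPM against 15.6 to 15.8 CPM, and *Tal1* 11.1 CPM against 14.3 to 14.9 CPM. The same embryo had the highest *Kdr* (91.3 CPM) and the highest macrophage sum (39.8 CPM) of the mutants at that stage. *Esm1* had 7.98 CPM in mutant replicate 4 at E10.5 against 6.37 to 6.55 CPM, and *Sox7* had 17.0 CPM in mutant replicate 5 at E10.0 against 12.4 to 12.8 CPM.

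By edgeR's quasi-likelihood test of the interaction, the genotype effect was called as different between stages for 0 members and for 4 genes of the other lists. The genotype difference at E10.5 minus that at E10.0 was -6.88 on the log2 scale for *Myog* (adjusted *P*=0.0149), a muscle differentiation factor, and -3.75 for *Wt1* (adjusted *P*=0.0190) and -5.05 for *Upk3b* (adjusted *P*=0.0366), both mesothelial genes. It was -2.78 for *Acta2* (adjusted *P*=0.0609), the smooth muscle actin of mural cells, with wild-type means of 0.81 CPM at E10.0 and 3.76 CPM at E10.5 and mutant means of 2.34 CPM and 1.54 CPM. Group means of *Myog*, *Wt1* and *Upk3b* are not given, so their log2 sizes do not show absolute levels. All genes of the mesothelium list together had 6.38 to 29.6 CPM per embryo, and all of the muscle list 30.0 to 44.2 CPM.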

How the results depend on the processing

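At E10.0, the members called by genotype turned from 1 lower (*Esam*) to 3 higher with DESeq2 and to 1 higher (*Kdr*) with RLE size factors, with no CPM filter, with only the groups compared and without mutant replicate 1. In these settings, in that order, 4.61%, 4.13%, 2.65%, 3.17% and 3.32% of all genes were called higher. The members called became 4 lower with replicates 1 to 3 alone (background: 10.2%) and 6 lower with the replicate block (background: 9.76%). With each sample left out, 0 to 1 were called (background: 1% to 3.61% higher and 1.05% to 4.97% lower). At E10.5, 0 were called with replicates 1 to 3 alone (background: 2.6% higher and 1.68% lower) or the replicate block (background: 2.04% and 1.01%). With each sample left out, 0 to 1 were called at that stage (background: 1.33% to 2.24% higher and 0.931% to 1.55% lower). Between stages in wild type, 6 were called with the replicate block (3 in each direction, background: 7.46% higher and 7.86% lower). With each sample left out, 0 to 4 were called (background: 2.44% to 5.51% higher and 1.47% to 5.46% lower). Between stages in mutants, 4 were called with replicates 1 to 3 alone (background: 9.72% higher and 7.79% lower) and 4 with the replicate block (background: 9.06% and 6.73%). With each sample left out, 4 to 10 were called (background: 8.86% to 11.7% higher and 6.46% to 10.4% lower). The interaction had 0 calls in every setting. The cause of these changes was not tested. The same-numbered samples of the 2 genotypes correlated by a mean of 0.01 (E10.0) or -0.17 (E10.5), those of the 2 wild-type stages by -0.11, so that only the mutant stages met the rule for pairing by number. The main calls between stages used no pairing. Over 172 alternative values of the 12 member calls, 117 kept the call, 55 lost it and 0 reversed. Sizes also moved: between stages in mutants the log2 difference ran from -0.40 to -0.14 for *Kdr*, from -0.46 to -0.16 for *Flt4* and from -0.45 to -0.19 for *Plvap*, and in wild type from -0.80 to -0.47 for *Gja4*. The mean over the members kept its size within 1 SD under RLE and without *Rn45s* in the library size, but at E10.0 its sign turned from -0.01 to 0.005 and 0.006.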
